A study of Mus musculus with 24 samples.

Results

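Beta-alanine, GABA and taurine are small amino compounds whose making, breakdown and transport share enzymes, and 8 genes of these routes were followed in the mouse left ventricle. They were Dpyd, Dpys and Upb1, which release beta-alanine from pyrimidines, Gadl1 and Csad, 2 decarboxylases, Abat and Aldh6a1, which break beta-alanine down, and Slc6a6, the taurine carrier. Members were taken by gene name, and every probe that carries one of these names was read. That gave 12 probes for the 8 genes, out of 55681 gene probes for 36413 gene names on the array. The set was built around Abat and Upb1, which were chosen by their measured signals, low in the vehicle-treated transgenic hearts (mG4H VEH) of these data. The comparison of mG4H VEH with CON VEH therefore describes these genes and does not test them.

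Left ventricles came from 24 male mice, 1 array each, in 4 groups of 6. mG4H STZ mice carried an inducible, cardiomyocyte-specific GLUT4 transgene, which encodes a glucose transporter, and received streptozotocin, a toxin of insulin-producing cells, at 55 mg per kg on 5 consecutive days. CON STZ mice, whose genotype is labelled only CON and which served as controls, received the same injections. mG4H VEH mice carried the transgene and received sodium citrate buffer, and CON VEH mice were controls given buffer. Per the labels, the transgene was induced 2 weeks after the injections and hearts were taken 2 weeks later, the right ventricle was cut away, and each group had sibling mice in other groups without a record of which. The labels give neither age, nor the promoter or inducer of the transgene, nor whether CON mice received the inducer. Recorded blood glucose, in a unit that is not given, was 500 to 601 in mG4H STZ and 600 to 601 in CON STZ. It was 131 to 152 in mG4H VEH and 117 to 164 in CON VEH.

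Uracil and thymine are degraded in sequence by dihydropyrimidine dehydrogenase (Dpyd), dihydropyrimidinase (Dpys) and beta-ureidopropionase (Upb1), and uracil yields beta-alanine in the last step. Abat is the mitochondrial transaminase that removes the amino group from GABA and from beta-alanine. Aldh6a1 oxidises the semialdehydes that beta-alanine and valine breakdown produce and makes acetyl-CoA and propionyl-CoA from them. Taurine is made from cysteine by way of cysteine sulfinate, which Csad decarboxylates, while Gadl1 is a related decarboxylase that in mouse can also act on aspartate to give beta-alanine. Slc6a6 brings taurine and beta-alanine into cells, and taurine is one of the most abundant free amino compounds of heart muscle.

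The signal of each gene rests on 60-base probes, and the opening 30 bases are shown for Abat and Upb1, which carry the main differences, and for Csad and Slc6a6, the taurine genes described after them. No letters are marked in these 4 stretches, which are the probe's own letters, 5′ to 3′.
Abat probe A_55_P2015495: ggtgaccacgtgaacagttccatgaattaa
Upb1 probe A_51_P183051: gagaactttcttctggggacttggaaatgt
Csad probe A_51_P268529: tcacagtatctgagttaggctaaaaatcac
Slc6a6 probe A_52_P339996: ggttttgcctccttcagaaatatgtctggc
On the build mm9 named in the files, the whole probes lie at chr16:8621576-8621635 on the plus strand for Abat and chr10:74902842-74902901 on the plus strand for Upb1. The Csad probe lies at chr15:102007569-102007628 on the minus strand and the Slc6a6 probe at chr6:91708620-91708679 on the plus strand. The other tested probes lie on chromosome 3 for Dpyd, 15 for Dpys and 12 for Aldh6a1. No transcript annotation of mm9 was used, so exons and untranslated regions are not assigned.

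Promoter sequence from RefSeq (build GRCm38.p6, from 250 bases before to 50 after a gene's start) was matched for 5 of the 8 genes, Upb1, Dpyd, Aldh6a1, Gadl1 and Csad. The 250 bases before the start of Upb1, at chr10:75406661-75406910 on the plus strand, are shown because Upb1 is the gene of the 2 that built the set whose promoter was matched, and capitals mark CCAAT or its reverse complement ATTGG.
Upb1 promoter: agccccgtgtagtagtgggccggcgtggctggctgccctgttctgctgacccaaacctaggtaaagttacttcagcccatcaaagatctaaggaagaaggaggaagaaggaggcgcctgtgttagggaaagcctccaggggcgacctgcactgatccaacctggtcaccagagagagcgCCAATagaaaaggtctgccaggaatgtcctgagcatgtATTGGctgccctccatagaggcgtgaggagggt
This stretch holds 2 copies of CCAAT, searched on both strands like the other motifs, a motif found in 37.4% of 32851 mouse promoters of the same 300-base window. The Aldh6a1 windows held 4 and 2 copies, 1 of the 2 Csad windows held 1, and the Dpyd, Gadl1 and other Csad windows held 0. CCAAT was added to the search after the Upb1 sequence had been read. The palindromic E-box CACGTG, present in 7.15% of promoters, and the cAMP response element TGACGTCA, present in 1.79%, were in 0 of the 7 promoter windows of these 5 genes. The nuclear receptor half-site AGGTCA, present in 16.3% of promoters, was in the Gadl1 window and in 1 of the 2 Aldh6a1 windows. These matches describe letters and no binding was measured.

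Signals were comparable in range across arrays. The 75th percentile of the processed signal lay between 370 and 583, and 58.5% to 76.3% of gene spots were well above background. All levels below are log2 signals relative to the array's own 75th percentile, so that 0 is that percentile. Ventricular markers were strong in every group: all 13 were above background on 24 of 24 arrays, and their summed linear level had a median of 4318 in mG4H STZ, 4474 in CON STZ, 4732 in mG4H VEH and 4495 in CON VEH. Upb1, Dpys and Abat are also liver and kidney genes. Of 10 liver markers, Apoa2, Serpina1a, Apoh, Cyp2e1 and Ahsg were above background on 24 arrays, Ttr on 23 and Fga on 10, while Alb was on 3, Apoa1 on 2 and Fgb on 1. Of 7 kidney markers, Slc34a1, Slc22a6 and Aqp2 were above background on 24 arrays, Umod on 16 and Slc12a3 on 4, while Kap was on 1 and Slc12a1 on 0. Slc2a4, the gene for GLUT4, had medians of 6.37 in mG4H STZ, 6.25 in CON STZ, 6.57 in mG4H VEH and 6.76 in CON VEH. It therefore does not check the genotype labels, and whether its probe reads the transgene is not given. Slides 1 to 3 held mice of every group, while slide 4 held only replicate 3 of mG4H VEH and replicate 3 of CON VEH.

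One mouse stood apart for the genes that built the set. mG4H VEH replicate 3, on slide 4, had an Abat level of 3.12, against 1.73 to 2.21 in the other 5 mG4H VEH mice. Its Upb1 level was -1.09, against -2.91 to -2.57 in the others. It was also the heaviest mouse of its group, at a body weight of 31.2 against a group median of 26.5, in a unit that the labels do not give. Over the 23 genes called between mG4H VEH and CON VEH, this mouse lay nearer to the CON VEH mean for 4, and each other mG4H VEH mouse for 0 or 1. Abat and Upb1 are among the 4, and the 23 genes were called with these same mice. The count is therefore no separate check of this mouse. The CON VEH mouse on the same slide was within its group for both genes, at 3.88 for Abat and -0.23 for Upb1. The differences of the 7 measured genes that involve mG4H VEH are given with and without this mouse, while marker sums, group ranges and list counts include it.

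The Abat signal was highest in buffer-treated control hearts and lower in each of the other 3 groups. Its level, lowest, median and highest, was 1.09, 1.70 and 2.31 in mG4H STZ, 1.20, 1.82 and 2.18 in CON STZ, 1.73, 1.85 and 3.12 in mG4H VEH and 3.87, 3.92 and 4.15 in CON VEH. All 6 CON VEH mice lay above all 18 others, and the ranges of the 3 other groups overlapped one another. In bulk tissue, fewer cells of a type and less RNA per cell cannot be told apart. Between mG4H VEH and CON VEH, the comparison that chose Abat, the log2 difference was -1.88 ± 0.21 (SE), a 3.68-fold lower level in mG4H VEH. Without mG4H VEH replicate 3 it was -2.09.

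**Figure D1:**
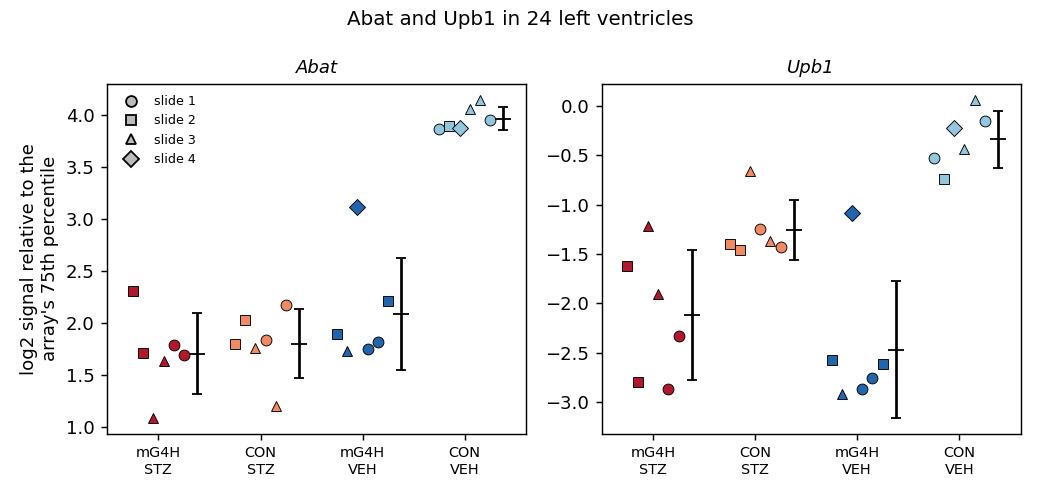
Levels of Abat (left) and Upb1 (right) in each mouse, as log2 signal relative to the array's 75th percentile, by group, with the marker shape giving the slide and the bar giving the mean ± SD (n = 6 mice). The 6 CON VEH mice lie between 3.87 and 4.15 for Abat, above every other mouse, and mG4H VEH replicate 3, on slide 4, lies above the other 5 mice of its group for both genes.

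Upb1, which acts a step before Abat in the same route, had its lowest levels in the transgenic groups. Its level was -2.87, -2.11 and -1.22 in mG4H STZ, -1.46, -1.38 and -0.66 in CON STZ, -2.91, -2.68 and -1.09 in mG4H VEH and -0.74, -0.33 and 0.062 in CON VEH. The mG4H VEH and CON VEH mice did not overlap, while 1 of 6 CON STZ mice lay within the CON VEH range. The difference between mG4H VEH and CON VEH, which also chose this gene, was -2.13 ± 0.29 (SE), or 4.38-fold, and -2.41 without mG4H VEH replicate 3. Within slides 1, 2 and 3 this difference was -2.47, -1.85 and -2.73 for Upb1, and -2.13, -1.84 and -2.38 for Abat, with 1 or 2 mice of each group on a slide.

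Set against each other, Abat and Upb1 ordered the groups differently. By group mean, Abat was lowest in mG4H STZ, then CON STZ, mG4H VEH and CON VEH, and only CON VEH stood clear of its neighbour in that order. By group mean, Upb1 was lowest in mG4H VEH, then mG4H STZ, CON STZ and CON VEH, and each group's range overlapped that of its neighbour. Across the 24 mice Pearson's r between them was 0.71, and 0.39 for deviations from the group means, as a description of mice that share groups and slides. The 0.39 includes mG4H VEH replicate 3, which lay well above the rest of its group for both genes. No r was computed without that mouse, so a link between the genes among the other mice is not shown. 

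**Figure D2:**
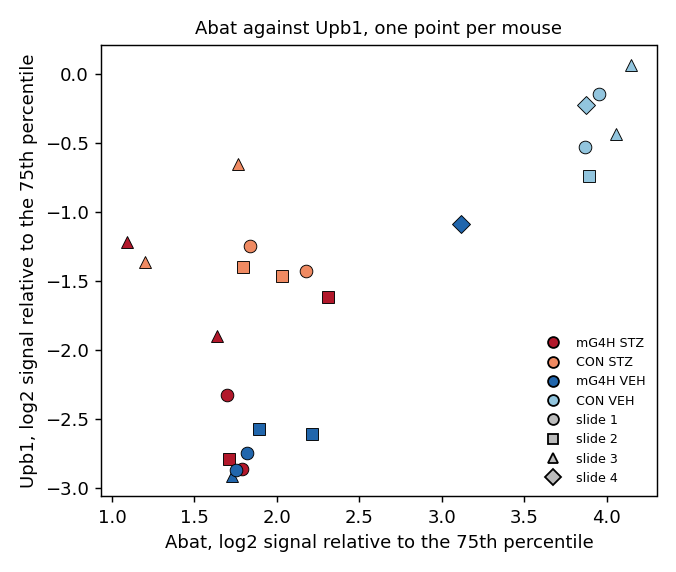
Abat (x axis) against Upb1 (y axis) in each of 24 mice, both as log2 signal relative to the array's 75th percentile, with colour for the group and shape for the slide. CON VEH mice lie apart at the upper right, and mG4H VEH replicate 3 lies between them and the other mice.

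In control hearts given STZ, Abat fell, and no other measured gene of the set passed the test. Of 7 genes tested, 1 was called, and it was lower, against 3.96% of all 28237 genes called in this comparison, 1.66% higher and 2.29% lower. The log2 difference for Abat was -2.17 ± 0.21 (SE), or 4.49-fold, with means of 1.80 ± 0.33 in CON STZ and 3.97 ± 0.11 in CON VEH (SD, n = 6 each; limma, Benjamini-Hochberg adjusted p = 1.15e-05). This comparison shares the CON VEH mice with the one that chose Abat, and its drop had already been seen in these data, so the p is not independent support. Within slides 1, 2 and 3 the difference was -1.91, -1.98 and -2.62.

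Upb1 differed by -0.92 ± 0.29 (SE) between CON STZ and CON VEH (limma adjusted p = 0.0825; exact permutation test, unadjusted p = 0.00433), with 5 of 6 CON STZ mice below every CON VEH mouse. It shares the CON VEH mice with the choosing comparison as well. The adjusted p was 0.0251 without mG4H VEH replicate 3 and 0.0468 without mG4H STZ replicate 3, mice outside the contrast that enter through the shared spread. Within slides the difference was -0.997, -0.69 and -0.82.

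The same comparison showed small upward differences in the taurine genes that did not pass. Csad was 0.92, 1.16 and 1.27 in CON STZ and 0.64, 0.81 and 0.88 in CON VEH. All 6 CON STZ mice lay above all 6 CON VEH mice, a pattern in that direction seen for 1.91% of all genes, and Abat's lack of overlap in the other direction for 2.67%. The difference was 0.33 ± 0.11 (SE; limma adjusted p = 0.125; exact permutation test, unadjusted two-sided p = 0.00216, the smallest that 924 splits allow), and 0.31, 0.53 and 0.25 within slides. It passed without mG4H STZ replicate 3 (limma adjusted p = 0.0474), a mouse outside the contrast. Slc6a6 was 4.22, 4.95 and 5.33 in CON STZ and 3.74, 4.43 and 4.69 in CON VEH, and 5 of 6 CON STZ mice lay above the CON VEH range. Its difference was 0.53 ± 0.22 (SE; limma adjusted p = 0.244; exact permutation test, unadjusted p = 0.0346), and 0.49, 0.48 and 0.61 within slides. With body weight as a covariate it was 0.081. Body weight was 21.8 to 27.8 in CON STZ and 27.9 to 36.4 in CON VEH, without overlap. That fit therefore cannot tell weight and STZ apart. Dpyd, Dpys and Aldh6a1 differed by 0.12, 0.64 and -0.13 with adjusted p of 0.943, 0.733 and 0.887 in limma, and Dpys by 0.14 with normexp. The median log2 difference of the 7 measured genes was 0.12, against 0.027 over all genes.

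Marker lists of other cells moved in the same comparison. The summed macrophage and monocyte level, over 10 genes, was 66.8 to 86.8 in CON STZ and 54.9 to 63.9 in CON VEH, so these groups did not overlap, and 1 gene of the list, Itgam, was called higher. The fibroblast sum over 10 genes was 324 to 594 in CON STZ and 330 to 403 in CON VEH, with 2 genes called higher. The atrial sum over 8 genes was 94.5 to 376 in CON STZ and 44.0 to 57.0 in CON VEH. Nppa was called higher, and the median difference of the list was 0.16. The ventricular sum was 3903 to 5422 in CON STZ and 4075 to 5561 in CON VEH, with 1 of 13 genes, Ckm, called lower. The liver sum over 7 genes was 5.31 to 14.7 in CON STZ and 4.97 to 6.08 in CON VEH, and Ahsg was called higher, by 1.73 (limma adjusted p = 0.0436). Of the adipocyte list Lipe was called higher, by 1.11, and of the nerve list Snap25, by 0.48. By limma 0 genes were called in the kidney, erythroid, endothelial and smooth muscle lists, with 0, 0, 4 and 1 at an unadjusted p under 0.05. Their part in the differences of Abat, Upb1, Csad and Slc6a6 was not tested.

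In transgenic hearts, STZ left the 7 measured genes without a call. None passed limma's test, against 0.266% of all genes called, and 1 of the 7, Slc6a6, had an unadjusted p under 0.05. No gene of the 7 separated the groups without overlap, against 0.453% of all genes for higher and 1.22% for lower. Slc6a6 was 4.63, 5.00 and 6.07 in mG4H STZ and 4.28, 4.48 and 4.86 in mG4H VEH, and 4 of 6 mG4H STZ mice lay above the mG4H VEH range. The difference was 0.62 ± 0.22 (SE; limma adjusted p = 0.197; exact permutation test, unadjusted p = 0.0130), a 1.54-fold higher level in mG4H STZ, and 0.55, 0.27 and 1.02 within slides. It was 0.57 without mG4H VEH replicate 3, and 0.40 with body weight as a covariate. Abat differed by -0.38 ± 0.21 (SE; limma adjusted p = 0.444), or -0.17 without mG4H VEH replicate 3, and Upb1 by 0.35 ± 0.29 (adjusted p = 0.688), or 0.62 without it. Both values share the mG4H VEH mice with the choosing comparison. In this comparison the median over all genes was 0.061, and -0.048 when arrays were scaled by their medians, under which Slc6a6 differed by 0.51, Abat by -0.49 and Upb1 by 0.24. For Abat the 95% interval of the difference was -0.82 to 0.058, and for Upb1 -0.26 to 0.95.

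Dpyd and Aldh6a1 spread widely among the mG4H STZ mice. Dpyd was -0.32, 0.29 and 0.88 in mG4H STZ and -0.28, -0.056 and 0.13 in mG4H VEH, and 4 of 6 mG4H STZ mice lay above the mG4H VEH range while 1 lay below it. Its difference was 0.33 ± 0.17 (SE; limma adjusted p = 0.417), and 0.28 without mG4H VEH replicate 3. Aldh6a1 was 5.08, 5.51 and 6.17 in mG4H STZ and 5.31, 5.34 and 5.51 in mG4H VEH, with 3 mG4H STZ mice above and 2 below the mG4H VEH range. Its difference was 0.19 ± 0.15 (adjusted p = 0.650), and 0.19 without that mouse. Csad and Dpys differed by 0.10 and 0.22 with adjusted p of 0.784 and 0.907 in limma, and by 0.15 and 0.058 without it. The median difference of the 7 genes was 0.22, against 0.061 over all genes. The macrophage and monocyte sum was 57.8 to 79.9 in mG4H STZ and 52.7 to 62.3 in mG4H VEH, and the ventricular sum 4113 to 5224 in mG4H STZ and 4037 to 5425 in mG4H VEH. Of all marker lists 1 gene was called here, Nppa of the atrial list, higher by 2.00 (limma adjusted p = 0.0494). The atrial sum was 75.3 to 534 in mG4H STZ and 29.6 to 126 in mG4H VEH. The median difference of the 8 atrial genes was -0.25, in the opposite direction to Nppa. The liver list had a median difference of 0.74, with 3 of 7 genes at an unadjusted p under 0.05 and a sum of 5.32 to 26.0 in mG4H STZ and 4.73 to 8.02 in mG4H VEH. The erythroid sum was 36.1 to 1334 in mG4H STZ and 473 to 709 in mG4H VEH. The part of these lists in the differences was not tested.

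The transgene was then compared under STZ, in mice that took no part in choosing Abat and Upb1. Recorded blood glucose also differed, with a median of 558.5 in mG4H STZ and 601 in CON STZ, and its part was not tested. None of the 7 genes was called by limma between mG4H STZ and CON STZ, against 0.0106% of all genes, and 2, Upb1 and Csad, had an unadjusted p under 0.05. All 7 genes overlapped between the groups, where 0.163% of all genes were higher and 0.0531% lower without overlap. Abat had means of 1.71 ± 0.39 in mG4H STZ and 1.80 ± 0.33 in CON STZ (SD, n = 6 each), a difference of -0.095 ± 0.21 (SE) with a 95% interval from -0.53 to 0.34 (limma adjusted p = 0.999995). Upb1 had means of -2.12 ± 0.66 in mG4H STZ and -1.26 ± 0.30 in CON STZ, and 5 of 6 mG4H STZ mice lay below every CON STZ mouse. The Upb1 difference was -0.86 ± 0.29 (SE), 1.82-fold lower in mG4H STZ, with a 95% interval from -1.46 to -0.26 (limma unadjusted p = 0.00719, adjusted p = 0.790; exact permutation test, unadjusted p = 0.0173). It was -1.26, -0.77 and -0.55 within slides 1, 2 and 3, and -0.52 with normexp background correction.

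Csad was 0.42, 0.79 and 1.24 in mG4H STZ and 0.92, 1.16 and 1.27 in CON STZ, and 5 of 6 mG4H STZ mice lay below the CON STZ range. The difference was -0.35 ± 0.11 (SE; limma unadjusted p = 0.00589, adjusted p = 0.711; exact permutation test, unadjusted p = 0.0238), and -0.31, -0.52 and -0.21 within slides. Slc6a6 differed by 0.26 and Dpyd by 0.31, with 95% intervals of -0.20 to 0.72 and -0.054 to 0.67. Aldh6a1 differed by 0.010 and Dpys by -0.33, with 95% intervals of -0.29 to 0.31 and -1.36 to 0.71. Each of these 4 had a limma adjusted p of 0.999995. The median difference of the 7 genes was -0.095, against 0.015 over all genes. The fibroblast sum was 341 to 476 in mG4H STZ and 324 to 594 in CON STZ, and the macrophage and monocyte sum 57.8 to 79.9 in mG4H STZ and 66.8 to 86.8 in CON STZ, and their part in these differences was not tested.

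**Figure D3:**
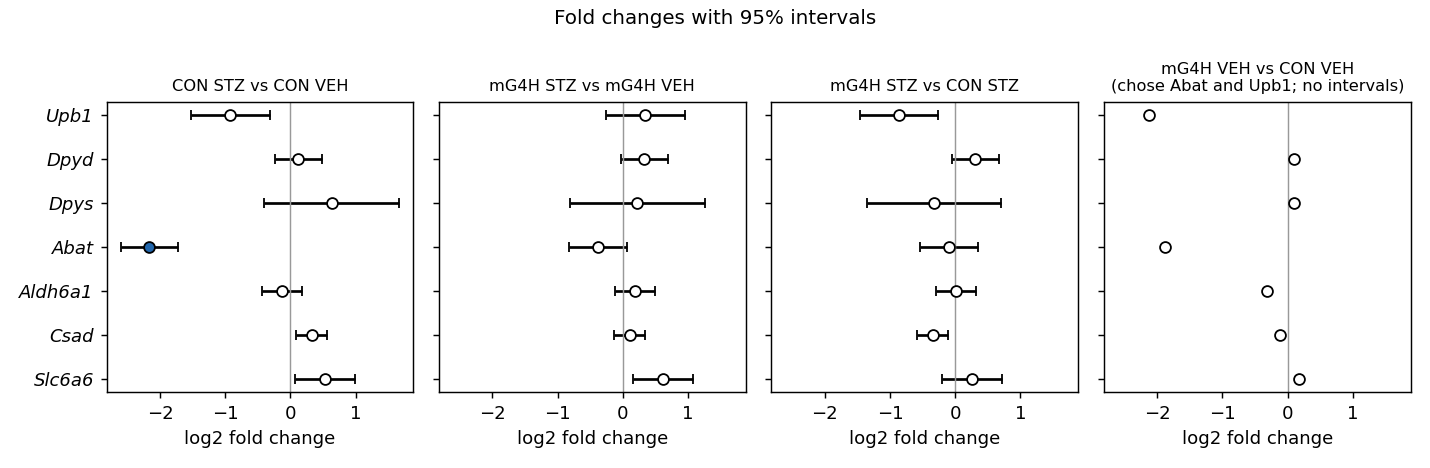
Log2 fold change of each measured gene in 4 comparisons (x axis). From top to bottom the genes are Upb1, Dpyd, Dpys, Abat, Aldh6a1, Csad and Slc6a6. Bars give the 95% interval from limma and a filled point marks an adjusted p under 0.05. Abat in CON STZ against CON VEH, at -2.17, is the filled point, and the panel of mG4H VEH against CON VEH, which chose Abat and Upb1, has no intervals or test.

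Under vehicle, the other 5 measured genes differed less by genotype than Abat and Upb1. Those 2 were chosen for being low in this comparison, so that order is not a result. Aldh6a1, which acts after Abat, was 5.31, 5.34 and 5.51 in mG4H VEH and 5.55, 5.71 and 5.81 in CON VEH, and the groups did not overlap. The log2 difference was -0.31 ± 0.15 (SE), and the gene's other probe gave -0.37, also without overlap. Within slides 1, 2 and 3 it was -0.35, -0.14 and -0.34, and without mG4H VEH replicate 3 it was -0.31. In all, 3 of the 7 genes were lower in mG4H VEH without overlap, a pattern seen for 0.62% of all genes, and 0 were higher without overlap, against 0.4%. Over all genes 0.0815% were called here. Since this comparison chose Abat and Upb1, nothing is read from these counts. Csad, Slc6a6, Dpyd and Dpys differed by -0.12, 0.17, 0.10 and 0.090, with overlapping groups, and by -0.17, 0.22, 0.15 and 0.25 without that mouse. Slc6a6 was -0.13 and Dpys -0.19 with body weight as a covariate. In this comparison limma called 0 genes in all 11 marker lists, and 4 had an unadjusted p under 0.05. They were Myl4 of the atrial list, at 1.47, Acta2 and Cnn1 of the smooth muscle list, at 0.47 and 0.50, and Cldn5 of the endothelial list, at -0.45. The atrial list had a median difference of 0.51 and a sum of 29.6 to 126 in mG4H VEH and 44.0 to 57.0 in CON VEH, and the part of these lists was not tested.

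The difference between the STZ effects, mG4H minus CON, was 1.79 ± 0.30 (SE) for Abat and 1.27 ± 0.41 for Upb1. Both share mice with the comparison that chose the genes, so no p is given for them. For the other 5 genes the values lay between -0.42 and 0.32, and none was called or had an unadjusted p under 0.05 in limma. Over all genes 0 were called, and 501 had an unadjusted p under 0.05. Without mG4H VEH replicate 3 the differences were 1.99 for Abat and 1.55 for Upb1.

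**Figure D4:**
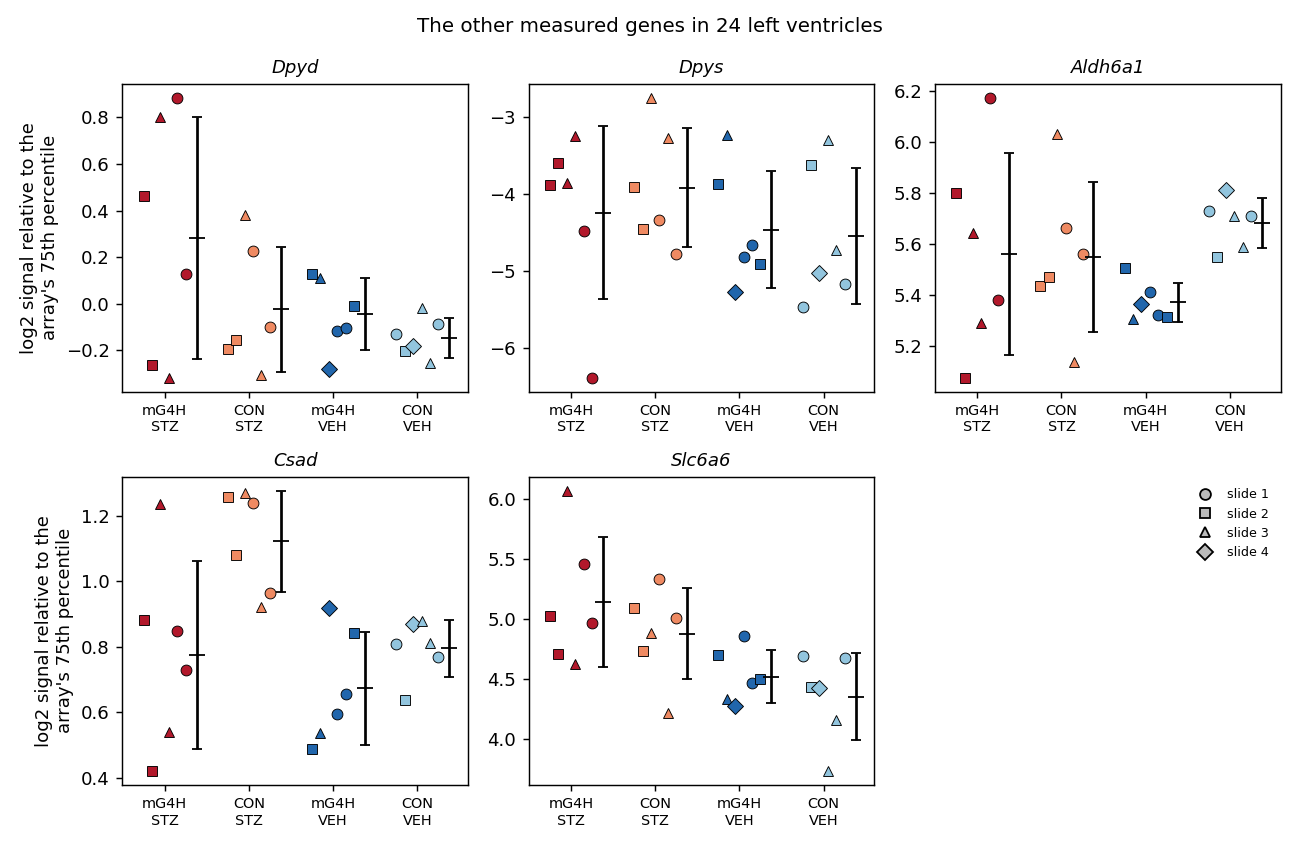
Levels of Dpyd, Dpys, Aldh6a1, Csad and Slc6a6 in each mouse, as log2 signal relative to the array's 75th percentile, by group, with shape for the slide and bars for the mean ± SD (n = 6 mice). The Csad levels of the 6 CON STZ mice, 0.92 to 1.27, lie above those of the 6 CON VEH mice, 0.64 to 0.88, and Dpyd and Aldh6a1 spread most in mG4H STZ.

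The remaining genes were at or near the limit of the array. Dpys was well above background on 20 of 24 arrays with the probe tested and on 6 with its other probe. Its level was -6.39, -3.87 and -3.23 in mG4H STZ, -4.77, -4.12 and -2.74 in CON STZ, -5.27, -4.74 and -3.23 in mG4H VEH and -5.47, -4.87 and -3.29 in CON VEH. All 4 ranges overlapped, and 59.7% of the variance within groups lay between slides, against 6.54% to 37.2% for the other 6 genes. Gadl1 was read by 3 probes that were well above background on 3, 0 and 0 arrays, and it did not pass the filter of 6 arrays. No probe of the set was saturated.

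Over deviations from the group means, pooled across groups, Dpyd and Aldh6a1 went together most closely of the 21 pairs of measured genes. Pearson's r was 0.85 over the deviations of 24 mice from their group means, and 0.64 over the levels themselves. The STZ groups weighed most in the 0.85. The SD of Dpyd was 0.52 in mG4H STZ, 0.27 in CON STZ, 0.15 in mG4H VEH and 0.085 in CON VEH. For Aldh6a1 it was 0.39, 0.29, 0.077 and 0.097 in the same order. No r was computed for single groups. Dpyd and Slc6a6 had 0.62, Upb1 and Csad 0.62, and Dpyd and Csad 0.61 within groups. These are descriptions of mice that share slides, dissection and labelling, and no p was computed.

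The genes whose levels were most like those of Abat over the 24 arrays, among 17750 genes compared, were Gcat (r = 0.93), Oxct1 (0.91), Scgb1c1 (0.86), Gcdh (0.86) and Gm6684 (0.86). Gcat is a threonine breakdown enzyme, Oxct1 activates ketone bodies for oxidation, and Gcdh takes part in lysine breakdown. Gcat had medians of 0.95 in mG4H STZ, 1.34 in CON STZ and 1.48 in mG4H VEH, against 2.45 in CON VEH, and Oxct1 had 6.30, 6.40 and 6.60 in these groups, against 7.11 in CON VEH. As with Abat, all CON VEH mice lay above all other mice for both genes. They were picked for a high r with Abat over these same arrays, so the shared pattern follows from the choice. For deviations from the group means, r with Abat ran from 0.39 for Gcdh to 0.59 for Oxct1. The genes most like Upb1, picked in the same way, were Cln6 (r = 0.86), Cib3 (0.81), Cyb5 (0.81), Bcat2 (0.80) and Dcxr (0.79). For deviations from the group means, r with Upb1 ran from 0.13 for Cib3 to 0.59 for Cln6. Bcat2 is the mitochondrial transaminase of branched-chain amino acids, and Cib3 is a calcium-binding protein gene, with medians of -3.02 in mG4H STZ, -2.14 in CON STZ and -3.30 in mG4H VEH, against -1.06 in CON VEH. In mG4H VEH replicate 3, Gcat was 1.53, Oxct1 6.81 and Scgb1c1 2.86, against highest values of 1.51, 6.77 and 2.16 in the other 5 mice of the group. Of the genes like Upb1, Cln6 was 0.38, Cyb5 5.07, Bcat2 2.20 and Dcxr -2.09, against highest values of 0.27, 4.88, 2.11 and -2.15. Gcdh, at 0.44, was below the other 5, and Gm6684 and Cib3 lay within their range. All these genes were picked by r over arrays that include this mouse.

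In the wider pathways, 16 genes passed the test in control hearts given STZ. Of 154 genes in 8 lists, 129 were measured. In CON STZ against CON VEH 4 were called higher and 12 lower, 12.4% of the 129, against 3.96% of all genes. The lists were chosen with earlier results of these data known, so nothing is read from the gap between these shares. The list calls were not followed under the alternatives, over which the number called among all genes ran from 75 to 2426. In each of the other 3 pairwise comparisons and in the difference of the STZ effects limma called 0 of the 129, while 29 had an unadjusted p under 0.05 in mG4H STZ against mG4H VEH, 4 in mG4H STZ against CON STZ, 17 in mG4H VEH against CON VEH and 8 in the difference. A call in one comparison and none in another does not show that the effects differ. Dbt, of the branched-chain keto acid dehydrogenase, is also among the 12.

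Valine and propionate breakdown, which meets the beta-alanine route at Aldh6a1, held the most calls, with 1 of 21 measured genes higher and 4 lower in CON STZ. Bckdhb, of the branched-chain keto acid dehydrogenase, fell by 0.64 ± 0.17 (SE; limma adjusted p = 0.0305), with means of 4.30 ± 0.34 in CON STZ and 4.93 ± 0.22 in CON VEH (SD, n = 6 each). Mmab, which makes the cobalamin cofactor of propionate breakdown, fell by 0.44 and Pccb, of propionyl-CoA carboxylase, by 0.46. Hadha, which also serves fatty acid oxidation, rose by 0.54. The list's median was -0.31 in this comparison and -0.13 in mG4H VEH against CON VEH, against 0.027 and -0.0084 over all genes.

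In the list of cysteine and taurine synthesis and use, 3 of 23 measured genes fell in CON STZ and 0 rose. Mpst, a sulfurtransferase of cysteine breakdown, fell by 0.77 ± 0.14 (SE; limma adjusted p = 0.00253), Ethe1, the mitochondrial persulfide dioxygenase, by 0.37, and Slc1a4, a carrier of neutral amino acids, by 0.39. Pyrimidine salvage, synthesis and nucleotide breakdown had 2 of 29 genes higher and 2 lower. Uck2, a uridine and cytidine kinase, rose by 0.52 and Ctps, which makes CTP, by 0.32, while Nt5m, a mitochondrial nucleotidase, fell by 0.35 and Dhodh, of uridine synthesis, by 0.40.

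Among carnosine, polyamine and other beta-alanine routes, 1 of 19 genes was called. Aldh1b1, a mitochondrial aldehyde dehydrogenase, fell by 0.95 ± 0.11 (SE; limma adjusted p = 7.17e-05), with means of 1.79 ± 0.26 in CON STZ and 2.74 ± 0.18 in CON VEH. In coenzyme A synthesis and recycling 1 of 14 genes fell, Nudt19, a coenzyme A hydrolase, by 0.25. Among 8 osmolyte carriers and tonicity genes, Slc38a2, an amino acid carrier, rose by 0.68 and Aqp1, a water channel, fell by 1.25. Of 7 measured genes of GABA synthesis, transport and breakdown and 9 measured GABA receptor genes, 0 were called by limma in CON STZ against CON VEH, with 2 and 0 at an unadjusted p under 0.05. Aldh5a1, which takes up the product of Abat's reaction with GABA, had means of 3.84 ± 0.23 in CON STZ and 3.96 ± 0.20 in CON VEH.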

How the data were processed

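Left ventricular RNA of 24 mice, 6 per group, was read on 1-colour Agilent arrays. Per the submitters' processing notes, Agilent Feature Extraction and limma were used; the version in the file headers is 10.5.1.1. The deposited values are spot intensities, the processed one being an intensity after background subtraction and not scaled between arrays, per the file headers. The mean and local background intensities of the deposited files served only the normexp alternative (offset 50). The number of arrays limits the precision.

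Log2 signals were reduced by each array's 75th percentile over gene spots. Spots marked as outliers were dropped and a probe's repeats averaged. A probe was kept when well above background on at least 6 of 24 arrays, and the brightest kept probe represented its gene, giving 28237 genes tested. One limma 3.58.1 model (R 4.3.3) held all arrays, with group means and no covariate. Tests were two-sided, with Benjamini-Hochberg adjustment over all genes and a threshold of 0.05. Single genes were also compared by exact permutation tests over 924 splits. The calculation was tested on simulated data. Python 3.11.15, numpy 2.4.6, pandas 2.3.3 and matplotlib 3.10.9 were used. No array was left out.

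The 8 genes and all lists were chosen with earlier results of these data known. The text names all 8 genes, up to 4 called genes per list and comparison by smallest p, and the 5 genes with the highest correlation with Abat and with Upb1. Alternatives were other scalings, background correction, filters, probe rules, fits of each pair of groups, array weights, terms for slide, scan day, replicate number or body weight, and leaving out arrays. The labels call the mice individual animals, with siblings in other groups. Same-numbered mice did not deviate together (correlation over 0.1 in 16 of 36 pairs, against 71 of 180 other pairs). The number was therefore not used as a block in the fits reported. Mice of different groups on the same slide did deviate together. Their median correlation was 0.30 over 61 pairs, against -0.12 over 155 pairs on different slides. The main model held no slide term, and slide was a block only among the alternatives.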

Additional observations from a re-analysis of the deposited data

Results flagged for a closer look

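Of 36 groups of 6 mice in which a single mouse was compared with the nearest of the others, 3 held a mouse far from the rest, and chance gives about 1 in 20. mG4H VEH replicate 3 was the highest of its group for Abat, at 3.12, and for Upb1, at -1.09, on the log2 scale relative to the array's 75th percentile. CON STZ replicate 3 was the highest of its group for Upb1, at -0.66, against -1.46 to -1.25 in the other 5.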

How the results depend on the processing

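Abat in CON STZ against CON VEH was called under every alternative tried, with a log2 difference of -2.21 to -1.79 over 15 alternatives. All of these fits share CON VEH mice with the comparison that chose Abat, so they are not independent support. In CON STZ against CON VEH the Abat difference was -2.24 to -2.05 with single arrays left out (highest limma adjusted p over all fits = 0.00232). The number of measured genes of the set called there was 1, but 2 with normexp, with the 2 groups fitted alone and with the replicate block, 3 with array weights, and 1 to 3 with single arrays left out. With the replicate block the added gene was Upb1 (limma adjusted p = 0.0265). The replicate block changed no other call of the set. In mG4H STZ against mG4H VEH and in mG4H STZ against CON STZ the number was 0 throughout. In the difference of the STZ effects it was 0, but 1 with array weights, with slide as a block and without the arrays of slide 4, and 0 to 1 with single arrays left out, the gene being Abat, whose mice chose it. Upb1 was -1.47 in mG4H VEH against CON VEH and -0.52 in mG4H STZ against CON STZ with normexp. Slc6a6 was 0.081 in CON STZ against CON VEH with body weight, and 0.091 in mG4H STZ against CON STZ with array weights. The cause of these shifts was not tested.

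Uncalled differences near 0 changed sign as follows, with the range over single arrays left out where such an array also turned it. Dpyd in CON STZ against CON VEH was -0.023 with body weight. In mG4H STZ against mG4H VEH, Csad was -0.0057 with median scaling and Dpys -0.040 with the slide block. In mG4H STZ against CON STZ, Abat was 0.0013 with array weights (-0.22 to 0.029), Aldh6a1 -0.038, -0.0077 and -0.0047 with quantile normalization, median scaling and body weight (-0.11 to 0.11), and Dpys 0.00080 with normexp and 0.068 with array weights (-0.53 to 0.10). In the difference of the STZ effects, with array weights, Dpys was 0.15 (-0.67 to 0.013) and Slc6a6 -0.055 (-0.092 to 0.22). In mG4H VEH against CON VEH, which was not tested, Slc6a6 was -0.13 with body weight, and Dpys -0.19 with body weight and -0.077 with array weights (-0.16 to 0.34).

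Over all genes, the number called in CON STZ against CON VEH was 1117, 75 with median scaling, 168 with body weight and 2426 with array weights, and 636 without CON STZ replicate 1. In mG4H STZ against mG4H VEH it was 75, from 0 to 253 over alternatives and 17 to 627 over single arrays left out. In mG4H STZ against CON STZ it was 3, of which 2 were higher, from 0 to 16 and 2 to 12, with 3 of 4 higher under quantile normalization and 2 of 2 under median scaling. In mG4H VEH against CON VEH it was 23, from 8 to 212 and 13 to 38. In the difference it was 0, up to 6 and up to 1. Signals near background limit Dpys and Gadl1.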
